A study of Mus musculus with 13 samples.

Results

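Binding of the transcription factor STAT3 at the gene Myc, at its noncoding neighbour Pvt1 and at the gene of the MYC antagonist Mnt was described in activated mouse B cells. The sites are all deposited STAT3 peaks on a stretch of chromosome 15 that runs from 85.3 kb below Myc to 39.8 kb above Pvt1, and all peaks that overlapped the RefSeq span of Mnt widened by 50 kb on each side (chr11:74780806-74895725, mm10). These loci were chosen from peak patterns already seen in the same lists, so presence, fold and rank at them are given as a description and no test between groups was made on them. The windows held 26 of the 13513 peaks used, and joining peaks that shared at least 1 bp between libraries gave 9 sites among 11227 regions. The Myc and Pvt1 window had 11 peaks in 5 sites and the Mnt window 15 peaks in 4 sites.

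STAT3 was mapped by CUT&RUN, in which an antibody directs a nuclease to the protein in permeabilised cells and the released DNA is sequenced. Naïve splenic B cells were activated in culture for 96 h with anti-CD40 (1 µg/mL) plus IL-4 (12.5 ng/mL) and sorted by the class of their antigen receptor into IgM+ and IgG1+ cells. For each library, 400000 sorted cells then received anti-CD40 with IL-4 (12.5 ng/mL) or with IL-21 (10 ng/mL) for 1 h. Every group, controls included, had thus been exposed to anti-CD40 and IL-4 beforehand, and the IL-21 arm differs from the IL-4 arm both by IL-21 and by the lack of IL-4 in the final hour. Wild-type (WT) groups had 2 libraries each (each sorted class with each cytokine). STAT3 knockout (KO) groups of the same 4 kinds had 1 library each, so that KO values have no spread. The sources used here do not state how and in which cells Stat3 was deleted, nor the age and strain of the mice. A peak list measures neither RNA nor the deleted gene, so neither the B cell label nor the KO label could be checked.

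MYC is a transcription factor of growth and the cell cycle that binds DNA as a pair with MAX, most often at the E-box CACGTG. MNT is a repressor that pairs with the same partner MAX and competes with MYC for these elements. Pvt1 is a long noncoding RNA gene beside Myc in the mouse and human genomes, and DNA elements within it are known to act as enhancers of Myc in some cell types. STAT3 is the main factor activated by the IL-21 receptor, and Myc is a textbook STAT3 target in several cell types.

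The only sequence that could be set beside a site was the Mnt promoter, shown because a peak covered part of it and because it carries the element that MYC and MNT themselves recognise. Of Myc, Pvt1 and Mnt, Mnt was matched to the RefSeq promoter table (GRCm38.p6, 250 bases before to 50 after a transcript start). The part under the peak is 153 bases on the plus strand, chr11:74830674-74830826, 5′ to 3′, with the E-box in capitals.
Mnt promoter: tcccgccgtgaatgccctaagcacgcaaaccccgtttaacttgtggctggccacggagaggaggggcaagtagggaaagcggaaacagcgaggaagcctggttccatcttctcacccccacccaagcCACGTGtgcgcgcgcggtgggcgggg
The E-box begins at 74830801 and is the only CACGTG in the 300-base promoter. CACGTG, a palindrome and so the same on both strands, was found in 7.15% of the 32851 promoters of the table. The STAT motif TTCNNNGAA and its longer form TTCNNNNGAA, each searched on both strands, had 0 matches in the Mnt promoter and at least 1 match in 8.30% and 6.95% of all promoters. A match is a run of letters and does not show a bound site. The searched 300 bases held no peak summit and no part of the recurrent Mnt sites, so these counts do not describe the bases there.

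In the Myc and Pvt1 window, peaks were found in the 4 WT libraries with IL-21 and in none of the other 8 libraries. Of the 11 peaks, 8 formed a pair of sites within Pvt1 that every WT IL-21 library had. The pair lay far from Myc itself, 184 kb and 196 kb beyond the lower end of the Myc span (61985341 to 61990361 on chromosome 15) and 11.8 kb from each other. The other 3 peaks were single-library sites, 1 of them on the lower end of Myc. The 8 lists without a peak here held 623 (second WT IgG1 library with IL-4) to 1892 peaks (KO IgG1 cells with IL-4). The KO lists with IL-21 held 1073 (IgM) and 648 (IgG1), and the WT IL-21 lists 865 to 2034. The part of list length in these absences was not tested.

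**Figure D1:**
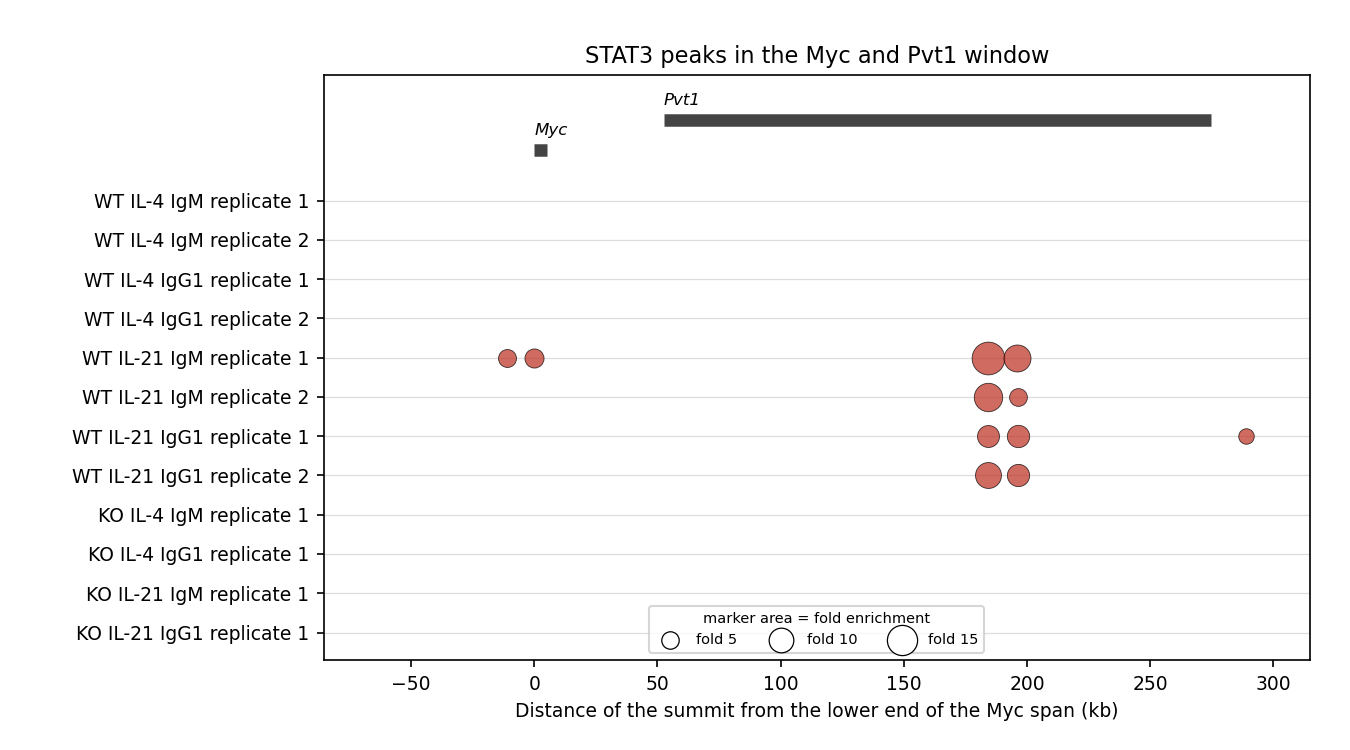
Peaks of the 12 libraries in the Myc and Pvt1 window, placed by the distance of their summit from the lower end of the Myc span (kb), with marker area proportional to fold enrichment and bars for the spans of Myc and Pvt1. All 11 peaks lie on the 4 WT IL-21 lines, and 8 of them stack in 2 columns at 184 kb and 196 kb.

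The first Pvt1 site (62168940 to 62170339) was the stronger of the pair. Its fold enrichment, the deposited ratio of summit signal to background, was 17.7 and 13.3 in the IgM libraries and 7.94 and 11.1 in the IgG1 libraries with IL-21. Whether that background came from the same library or from the input sample is not stated in the sources used here. Both IgM values lay above both IgG1 values, although a fold is a ratio to a background and cannot be compared across libraries as a level. The mean was 12.5 ± 4.09 (SD, n = 4 libraries of both isotypes).

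By the −log10 p of the peak (the eighth column of the lists), the first Pvt1 site ranked 85 of 2034 and 54 of 1171 peaks in the IgM libraries. In the IgG1 libraries it ranked 81 of 865 and 99 of 1485. It thus stood within the top 9.36% of each list, and at 4.18% and 4.61% in the IgM lists. The best summit, 62169648, lies 131662 bp from the lower end of the Pvt1 span (62037986 to 62260215). Summits of the 4 libraries fell within 66 bp, while the peaks were 504 to 1127 bp wide.

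The second Pvt1 site (62181183 to 62181855) had folds of 12.01 and 5.21 in the IgM libraries and 8.18 and 8.14 in the IgG1 libraries, a mean of 8.38 ± 2.79 (SD, n = 4). Here the IgG1 values lay between the IgM values, so the isotypes overlapped. It ranked 159 of 2034, 425 of 1171, 79 of 865 and 191 of 1485 in the same order. Its best summit, 62181464, lies 143478 bp from the lower end of Pvt1, and the 4 summits spread over 153 bp.

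The balance between the Pvt1 sites differed from library to library. The fold of the second site divided by that of the first was 0.680 and 0.392 in the IgM libraries and 1.03 and 0.736 in the IgG1 libraries. The first IgG1 library was the one with the second site slightly higher. No test of this ratio between isotypes was made.

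Fragment numbers behind the folds were read from each peak's fold and −log10 p, which together fix a whole pileup and a Poisson background. At the first Pvt1 site this gave 49, 47, 24 and 34 fragments in the first and second IgM and the first and second IgG1 library, over backgrounds of 1.83, 2.61, 2.15 and 2.16. At the second site it gave 33, 18, 25 and 25 fragments. In the 8 WT IL-4 and KO libraries the smallest pileup called anywhere was 10 to 11 fragments. A pileup below that height, or a larger one over a higher local background, could go uncalled, so the lack of a peak there is not a lack of binding.

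**Figure D2:**
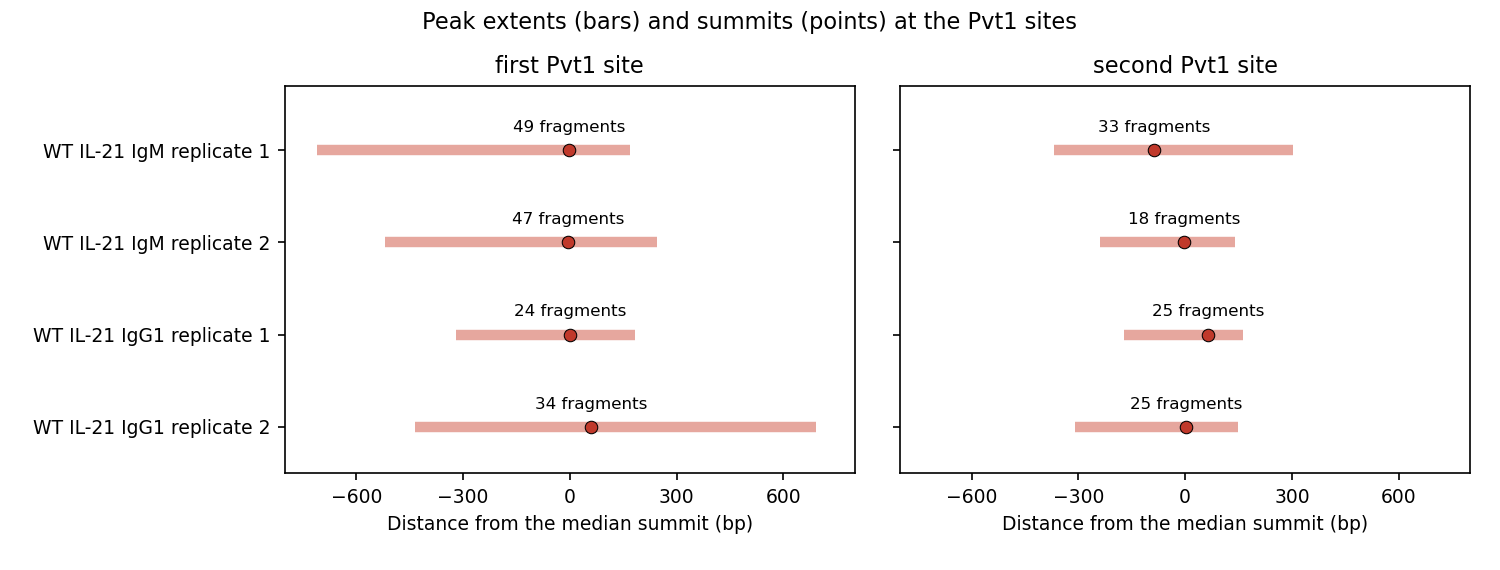
Extent (bars) and summit (points) of each peak at the first and second Pvt1 sites, in bp from the median summit of the site, for the 4 WT IL-21 libraries, with the fragment number at the summit. Summits fall within 66 bp at the first site and 153 bp at the second, and fragment numbers run from 24 to 49 and from 18 to 33.

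Neither Pvt1 site lay within 50 kb of a protein-coding gene, so an assignment of regions to the nearest such gene leaves both without a name. The annotation used gives spans without exons, and whether the sites are exonic or intronic in Pvt1 was not determined. The transcribed pseudogene Macroh2a3 (62217541 to 62219451), which also lies within Pvt1, had no peak.

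At Myc itself, 1 peak covered the lower end of the span (61985190 to 61985452). It was found in the first IgM library with IL-21 alone, at a fold of 6.005, with 16 fragments over a background of 1.83, and ranked 819 of 2034. Its summit lay 27 bp inside the Myc span. The same library had a second peak 11.1 kb below the span (61974128 to 61974367), at a fold of 5.30 and rank 1117 of 2034. The last site of the window (62273979 to 62274207) lay 13837 bp past the upper end of Pvt1 and was found in the first IgG1 library with IL-21, at a fold of 3.97 and rank 412 of 865. None of these 3 sites recurred, and the pair at and below Myc comes from the longest of the 12 lists. Without that library the window held 3 sites in place of 5.

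The Mnt window showed another pattern, with peaks in 7 of the 12 libraries, WT IL-4 and KO libraries among them. Within Mnt (74830806 to 74845725 on chromosome 11, plus strand by the promoter table) 2 sites recurred, and both were present in the 4 WT lists with IL-21, in 1 WT list with IL-4 and in 1 KO list. They account for 13 of the 15 peaks. The library with a KO peak was the same at both, IgM cells with IL-4, whereas the KO lists with IL-21 held 0 peaks in the window.

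**Figure D3:**
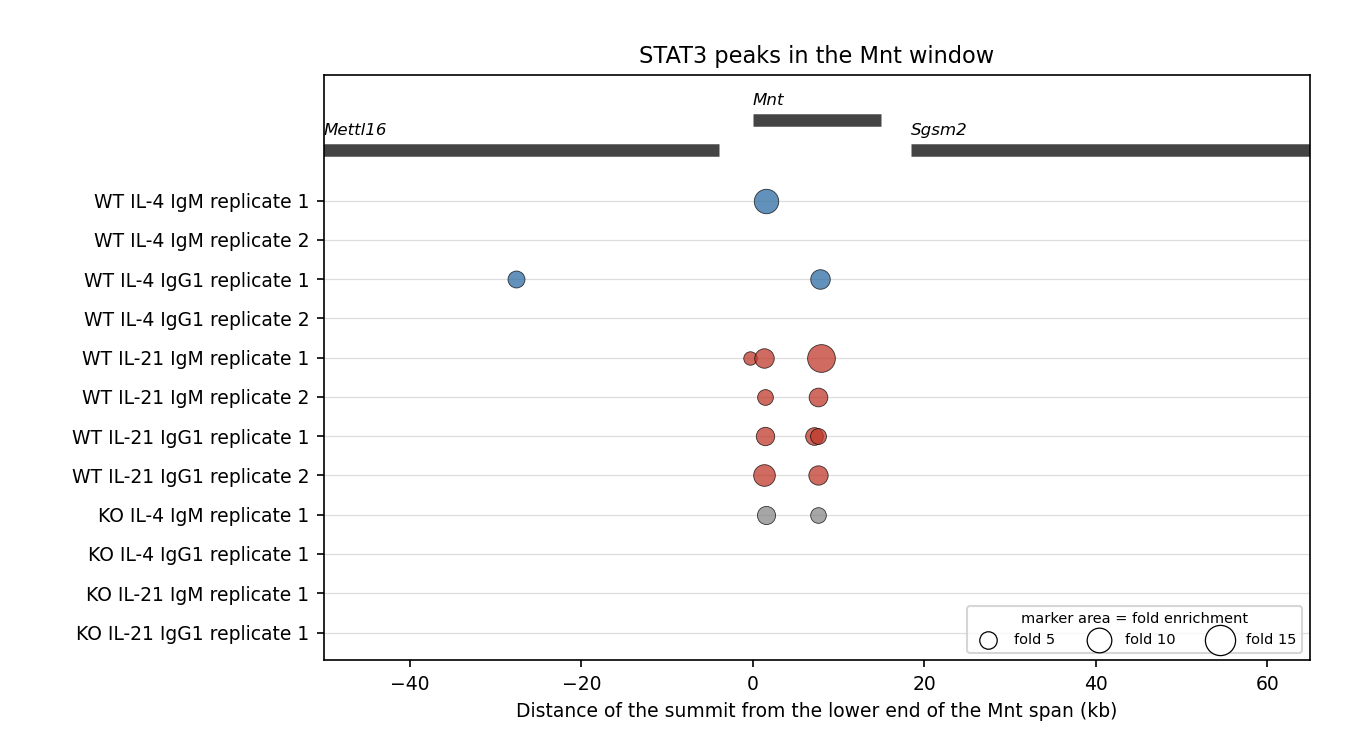
Peaks of the 12 libraries in the Mnt window, placed by the distance of their summit from the lower end of the Mnt span (kb), with marker area proportional to fold and bars for the spans of Mettl16, Mnt and Sgsm2. Peaks gather near the lower end of Mnt and again near the middle of the span in the 4 WT IL-21 libraries, and each place also has 1 WT IL-4 (blue) and 1 KO (grey) peak.

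The first Mnt site (74831998 to 74832475) lies near the start of the gene. Its best summit, that of the WT IL-4 library, is 1519 bp inside the span. With IL-21 its fold was 6.25 and 4.09 in the IgM libraries and 5.59 and 7.73 in the IgG1 libraries, a mean of 5.91 ± 1.51 (SD, n = 4). The first IgM library with IL-4 had a fold of 9.83 and the KO IgM library with IL-4 had 5.45. The WT IL-4 peak stood higher in its own list (33 of 1455) than any IL-21 peak in its list, where the ranks were 664 of 2034, 814 of 1171, 195 of 865 and 182 of 1485. The KO peak ranked 158 of 763. Counting fragments, the WT IL-4 peak had 33 and the KO peak 19, beside 16 to 27 with IL-21. These numbers are not scaled to library depth and do not compare levels of binding.

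The summits at the first Mnt site were spread over 310 bp in all and over 143 bp among the WT IL-21 libraries. Those of the WT IL-4 library (74832325) and the KO library (74832384) both lay above the WT IL-21 summits, which ran from 74832074 to 74832217.

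The second Mnt site (74837774 to 74839138) lies deeper in the gene, 7984 bp from its lower end at the best summit, that of the first IgM library with IL-21. Its highest fold per library with IL-21 was 12.7 and 5.76 in the IgM libraries and 5.16 and 6.14 in the IgG1 libraries, a mean of 7.44 ± 3.52 (SD, n = 4). The first IgM library stood apart from the other 3. The first IgG1 library with IL-4 had a fold of 6.30 (rank 37 of 651) and the KO IgM library with IL-4 had 4.05 (rank 538 of 763). As numbers, the WT IL-4 fold lay just above, and the KO fold below, the range of the 3 lower WT IL-21 libraries (5.16 to 6.14). This order does not compare levels of binding between libraries.

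This was a broad site with more than 1 summit. In IgG1 cells with IL-21, the first library had 2 separate peaks in it, with summits at 74837955 and 74838440, and the highest summit of the first IgM library was at 74838790. Summits of the second IgM, the second IgG1 and the KO library were at 74838454, 74838441 and 74838458. Widths with IL-21 ran from 247 to 1314 bp. Joined by summits within 200 bp in place of overlap, the peaks of the Mnt window formed 5 sites in place of 4.

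**Figure D4:**
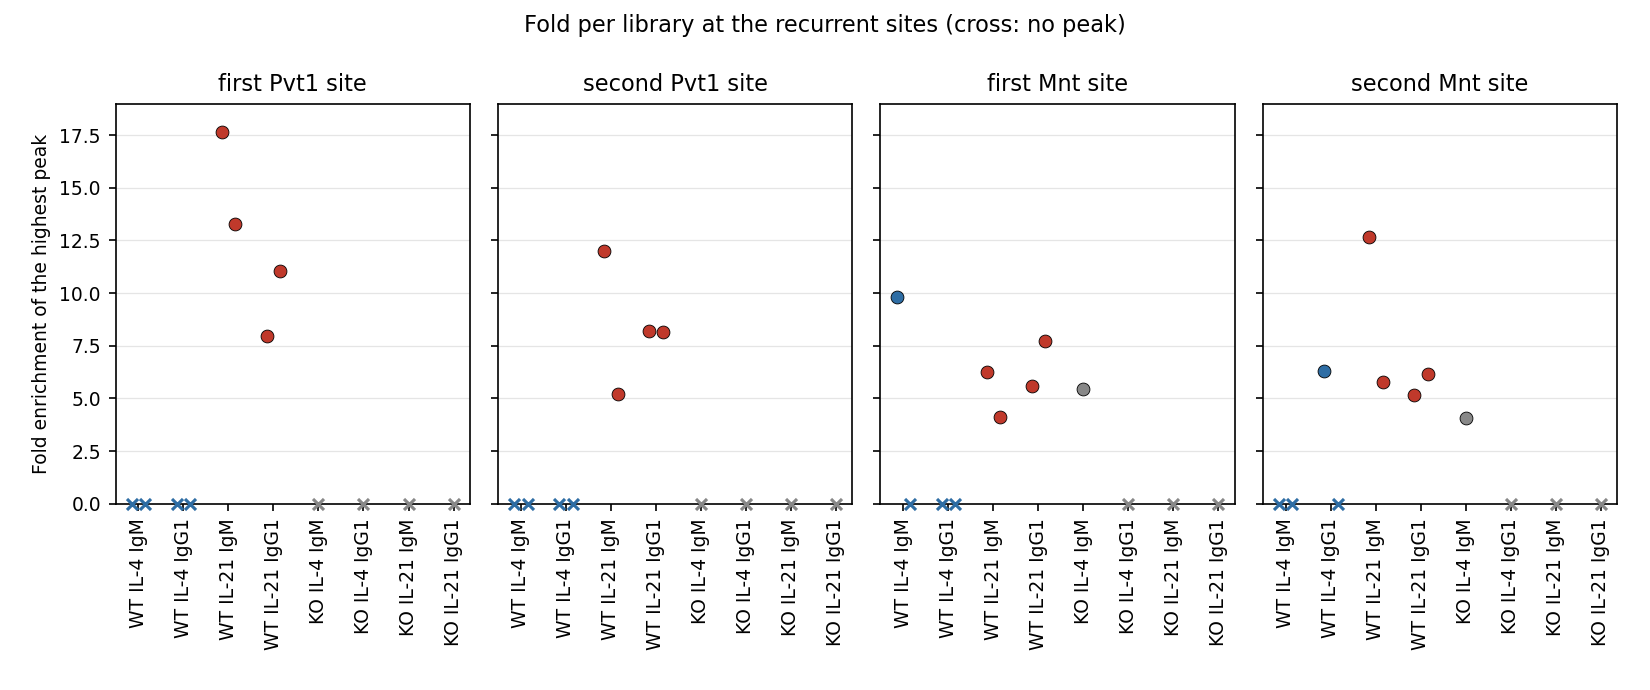
Fold enrichment of the highest peak per library (y axis) at the recurrent Pvt1 and Mnt sites, by group (x axis: red WT IL-21, blue WT IL-4, grey KO); a cross at 0 marks a library with no peak. The Pvt1 sites have points in the 4 WT IL-21 libraries alone, while each Mnt site also has 1 WT IL-4 and 1 KO point.

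The remaining 2 Mnt sites were each found in 1 library. The peak over the Mnt promoter shown above (74830399 to 74830826) came from the first IgM library with IL-21, at a fold of 2.99 and rank 1689 of 2034, with 26 fragments over a local background of 8.02. Its summit, 74830474, lay 332 bp below the Mnt span and outside the printed bases. The lowest fold among the 26 peaks was at this site. The last site (74803195 to 74803421) lay within Mettl16, the gene of an RNA methyltransferase next to Mnt, and came from the first IgG1 library with IL-4 at a fold of 4.73 and rank 244 of 651. No peak lay in the part of Sgsm2 that the window covers, nor at the microRNA gene Mir6926 within it.

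Against all regions, 2 of the 9 sites were gained in both isotypes, that is, every WT list with IL-21 had a peak there and no WT list with IL-4 did. Both were the Pvt1 sites. Among the 7461 regions found in WT, 98 were gained in this sense (1.31%), and 0 of the 9 sites were lost in the reverse sense. The share lost over all WT regions is not given here, so that 0 describes no trait of these sites. The 98 rest much on the first IgG1 library with IL-21, without which 215 regions were gained. The Pvt1 pair is among them by the rule itself, since fewer lists then need a peak. With presence in 3 of the 4 WT lists with IL-21 enough, the count cannot fall. It was 2 of 9 there too, against 3.52% of WT regions. Most WT regions rest on 1 library and cannot be gained by these rules. Among the 208 regions found in at least 4 WT libraries 47.1% were gained, beside 2 of 4 here. The share of gained sites here is thus near that of recurrent regions in general. Without the first IgM library with IL-4, or without the first IgG1 library with IL-4, a Mnt site joins the gained set and the count becomes 3.

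Within isotypes, 3 of the 9 sites were gained in IgM cells (background 4.32%) and 3 in IgG1 cells (background 2.43%). Each set held the Pvt1 pair and 1 Mnt site, the second in IgM cells and the first in IgG1 cells. The Mnt sites differ in this because the WT IL-4 library with a peak was of IgG1 cells at one and of IgM cells at the other. Both backgrounds are over all WT regions, most of which rest on 1 library and cannot be gained. No share over recurrent regions was taken within an isotype, so no excess can be read from these counts. Without the second IgM library with IL-21, a site of the remaining IgM library counts as gained on 1 library alone, and the IgM count rises to 6.

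A peak in any KO library was found at 2 of the 9 sites, both of Mnt, against 4.73% of all WT regions. Of the 167 regions present in every WT list with IL-21, 25.1% had a KO peak, beside 2 of the 4 such sites here. Of the 9 sites, 5 were found in exactly 1 library, against 90.7% of all regions.

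Among the 98 gained regions the first Pvt1 site ranked 21 and the second 60 by mean fold in the WT IL-21 libraries. The mean fold of the 98 had a median of 9.07 and ran from 4.54 to 21. No protein-coding gene lay within 50 kb of 5 of the 98 (5.10%), and the Pvt1 sites are 2 of these 5. The same held for 2219 of all 11227 regions (19.8%). Another gained region within 20000 bp was found for 11 of the 98 (11.2%), among them the Pvt1 pair. The first IgM library had the highest fold at 84 of the 98 regions and the first IgG1 library the lowest at 62. At both Pvt1 sites the first IgM library was likewise highest, and the first IgG1 library was lowest at the first site but not at the second.

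**Figure D5:**
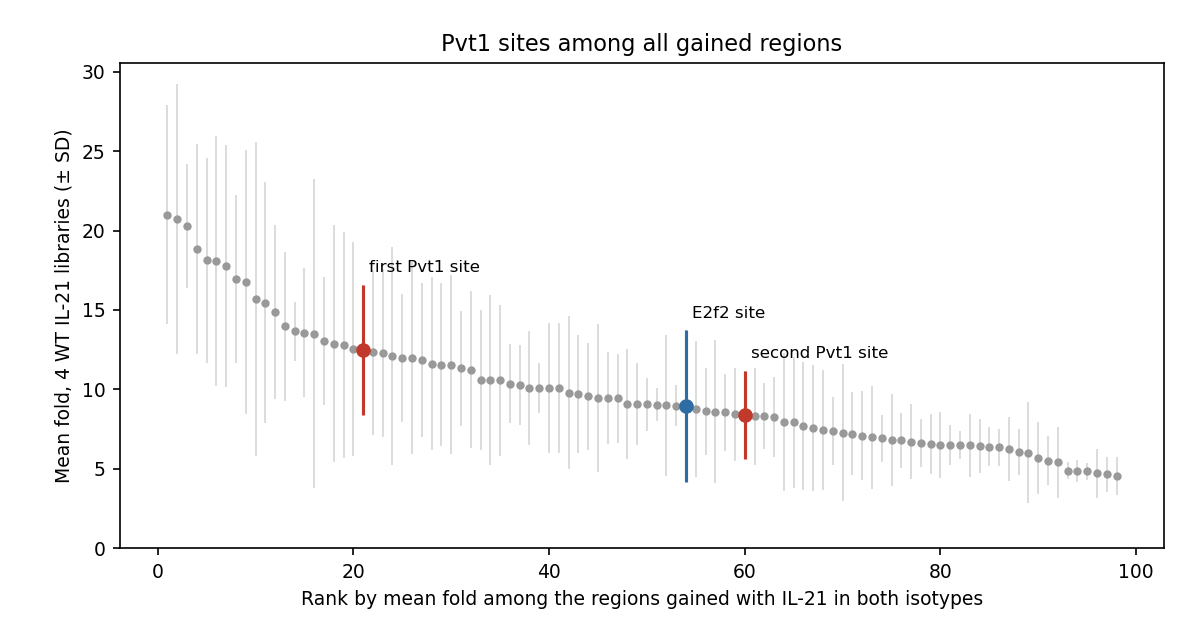
Mean fold over the 4 WT IL-21 libraries (points, bars ± SD) of the 98 regions gained in both isotypes, ordered by rank (x axis). The first Pvt1 site is at rank 21 (12.5), the gained site in E2f2 at rank 54 (8.94) and the second Pvt1 site at rank 60 (8.38).

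Regions at genes of the MYC network were counted as well, Myc and Mnt included. Of 14 genes for MYC family proteins, their partners and antagonists, 4 had a region in WT assigned within 50 kb (Myc, Mnt, Mxd4 and Mlxipl), against 21.2% of protein-coding genes. Mxd4, which encodes a MAX-binding repressor, had a peak in the second IgG1 library with IL-21 at a fold of 3.59. Mlxipl, which encodes a glucose-responsive factor of the same wider network, had one in the first IgM library with IL-21 at 4.94. Max, Mycn, Mycl, Mxd1, Mxd3, Mxi1, Mga, Mlx, Mlxip and Zbtb17 had no region. One of the 4 genes, Mnt, had a region gained in at least 1 isotype, against 7.43% of the 4631 genes with a region in WT. Mnt was itself chosen from patterns in these lists, so this count says nothing about the network. No region of Myc, Mxd4 or Mlxipl was gained in either isotype. The number of network genes with a gained region was 3 without the second IgM library with IL-21 (Myc, Mnt and Mlxipl) and 2 without the first IgG1 library with IL-21 (Mnt and Mxd4). Without the first IgM library with IL-21, 2 network genes had a region at all. Mxd4 and Mlxipl, and below Ldha, Eif4e, Apex1, Cdc25a and Tfrc, are named although their values did not meet the rule for naming.

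Of 20 textbook targets of MYC, 6 had a region in WT, beside 21.2% of protein-coding genes, and 1 of these, E2f2, had a gained one, beside 7.43% of genes with a region. Both counts rest on few genes. Cdc25a and Tfrc had peaks in WT IL-4 libraries alone, Cdc25a at a fold of 4.52 in the second IgM library. Those of Tfrc were at 4.22 in the second IgM and 4.10 in the first IgG1 library with IL-4. Each region of Eif4e and Apex1 had a peak in 1 WT IL-21 library. E2f2 encodes a transcription factor that drives entry into S phase. Its gained site (chromosome 4, 136177269 to 136178138, within the gene) had folds of 16.0 and 6.63 in the IgM libraries and 5.43 and 7.73 in the IgG1 libraries with IL-21, and no peak in a WT IL-4 or KO library. The mean was 8.94 ± 4.77 (SD, n = 4). E2f2 had 5 regions in all, 1 of which had a WT IL-4 peak (136172610 to 136173415, fold 3.96 in the first IgG1 library). Ldha, which encodes a lactate dehydrogenase subunit, had 3 regions, the widest shared by 2 WT IL-21 libraries at folds of 7.77 and 3.68. Its last region (46847036 to 46847358) was found in the first IgM library with IL-4 alone, at a fold of 4.95. The number of target genes with a gained region was 2 without the first IgM library with IL-21 (E2f2 and Eif4e), 4 without the second (E2f2, Eif4e, Ldha and Apex1) and 2 without the first IgG1 library with IL-21 (E2f2 and Ldha).

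Of the 9 sites, both recurrent Mnt sites were found in the most libraries (6), and the second had the higher mean fold with IL-21. The regions elsewhere with a pattern most like that site were sought by the mean absolute difference of the within-list percentile of −log10 p over the 12 libraries. They lay within Limd1 (7.93 percentile points), Cstad (8.34), Anks1 (11.7) and Cic (11.8) and 153 bp from Gabarap (12.2). None of these 5 had a KO peak, and Limd1 and Cstad had 1 WT IL-4 peak each. For the Pvt1 sites, a choice made after their values were seen, the closest were regions near Frmd8 (0.331 points) and Kcnj6 (0.429) for the first and within Arih1 (0.777) and Katnal1 (1.06) for the second. All 4 were gained in both isotypes, which a choice by likeness to a gained site made nearly certain. The likeness is over 12 libraries, 8 of which have no peak in the Pvt1 patterns.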

How the data were processed

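Each of the 12 antibody libraries has its own deposited peak list. Per the submitters' processing notes, MACS2 2.2.7.1, Bowtie2 2.4.1, deepTools 3.5.1 and Trimmomatic 0.39 were used with mm10; their roles are not stated there. Nothing used here states the control, read filters or use of the yeast spike-in. The deposited lists give a fold enrichment (a ratio), −log10 values of p and of q, and a score that for nearly all peaks is 10 times the −log10 p without its decimals. The input sample was not analysed here. Of 13908 peaks, 395 outside chromosomes 1 to 19, X and Y were left out. Lists held 623 to 2034 peaks, and the lowest −log10 p was 5.00.

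Peaks were merged and counted in Python 3.11.15 with pandas 2.3.3, numpy 2.4.6 and scipy 1.17.1, and figures were drawn with matplotlib 3.10.9. Merging and the fragment reading were checked on made-up lists. Fragment numbers assume fold = (pileup + 1)/(background + 1) and a Poisson p, and matched 99.0% to 100% of each library's peaks of −log10 p below 30 to within 0.001. Genes and promoters came from RefSeq on GRCm38.p6, the assembly of mm10; positions are 1-based. A region went to the nearest protein-coding gene span within 50 kb of its best summit. Sites in 2 or more libraries were described in full, and others by their values. No test between groups and no p-value was computed. The 4 WT IL-21 folds of each site held by all 4 libraries were screened for a value far from the others by Dixon's ratio, with a limit of 0.829. Whether replicates came from separate animals is not stated. The members and lists were chosen with earlier results of these data known. Alternatives were a −log10 q or a fold of at least 5, equal list lengths (623 peaks), joining by summits within 200 bp or by an overlap of 50%, other windows and assignment distances, and leaving out each WT library.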

Additional observations from a re-analysis of the deposited data

Results flagged for a closer look

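At the second Mnt site, the fold of the first IgM library with IL-21 (12.7) lay far from those of the other 3 WT IL-21 libraries, which ran from 5.16 to 6.14. The values belong to different summits of this broad site. The summit was at 74838790 in the first IgM library and at 74838454, 74837955 and 74838441 in the others. Among the 4 sites that every WT list with IL-21 held, the second Mnt site was the 1 to stand out so, by Dixon's ratio. Chance alone passes this ratio in about 1 of 20 sets, and at least once over the 4 sets screened more often than that. The first IgM library with IL-21 had the highest fold at 84 of the 98 gained regions, and its part in the fold of 12.7 was not tested.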

How the results depend on the processing

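No paired analysis was possible because no result comes from a test between groups. The WT groups share replicate numbers 1 and 2, which were not used to pair libraries, and the KO groups have 1 library each. The Pvt1 pair was gained in both isotypes under each alternative that changed the peaks used or how they were joined. It stayed so without each WT library too, but leaving out a library loosens the rule and could not have removed the pair. With a −log10 q of at least 5, Mnt sites fell from 4 to 2, sites with a KO peak from 2 to 1, network genes with a region from 4 to 2 and target genes with a region from 6 to 3. A fold of at least 5 gave the same 4 counts (2, 1, 2 and 3). With equal list lengths the Myc and Pvt1 window held 3 sites and the network list 1 gene with a region. A wider window of chromosome 15, centred on Myc, held 9 sites. Leaving out 1 WT library gave 3 to 5 sites in the Myc and Pvt1 window, 3 to 4 in the Mnt window, 2 to 3 sites gained in both isotypes (also by the rule of 3 of 4), 3 to 6 gained in IgM and 3 to 4 in IgG1 cells. It gave 1 to 3 gained network genes (2 to 4 with a region), 1 to 4 gained target genes (5 to 6 with a region), 2 sites with a KO peak each time and 99 to 215 gained regions in all, the highest without the first IgG1 library with IL-21. Depth limits each absence: pileups under 10 to 12 fragments were called nowhere.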

Other observations

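Beyond the Myc and Pvt1 window, from 1 Mb below to 2.5 Mb above the lower end of Myc, 14 further regions were found on chromosome 15, and 12 of them came from 1 library. Of all regions, 90.7% came from 1 library. No WT IL-4 library had a peak among the 14, while 8 had a WT IL-21 peak and 6 a KO peak. The WT IL-4 lists are shorter (623 to 1455 peaks) than the WT IL-21 lists (865 to 2034). The same counts over all regions were not made, so no trait of this stretch can be read from them. One, 2090 kb above Myc (64074994 to 64076015, 11246 bp from Asap1), was gained in both isotypes, with folds of 12.95 and 6.76 in the IgM libraries and 3.22 and 7.79 in the IgG1 libraries with IL-21. Another, at −444 kb from Myc (61540928 to 61541249), was found in both IgM libraries with IL-21 at folds of 6.71 and 5.53. The region nearest to the Mnt window lay 10.9 kb below it and 1012 bp from Mettl16, with a fold of 4.13 in the first IgG1 library with IL-21.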
